A study of Mus musculus with 9 samples.

Results

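The 9 genes described here encode 5 STAT transcription factors (Stat3, Stat4, Stat5a, Stat5b and Stat6) and 4 feedback inhibitors of the same pathway (Cish, Socs1, Socs2 and Socs3). They were taken by symbol from the deposited table of 23466 genes, and all 9 were present and passed the filter on low counts. The cells were ILC2s (group 2 innate lymphoid cells), lymphocytes that reside in tissues and are known for type 2 cytokines, and each of 9 RNA-seq libraries came from such cells of wild-type C57/Bl6 mice 10 weeks old. They were sorted as living cells with CD45, ST2 (the IL-33 receptor) and Thy1 and without lineage markers. Injured meninges were brain meninges of mice whose spinal cord had been contused with 80 kdyn, taken 24 h later. Uninjured meninges and uninjured lung came from mice without injury, and each of the 3 groups had 3 libraries. No group was labelled as sham-operated, so contusion and surgery cannot be told apart. Per the labels, 5 mice were pooled per group. They do not say whether each library had its own pool, so p-values measure only the spread between libraries, which may be technical.

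Cytokine receptors of this class have no kinase of their own. Binding of a cytokine activates the Janus kinases (JAKs) bound to the receptor, which phosphorylate STAT proteins, and these then enter the nucleus and switch on target genes. CIS, encoded by Cish, and the SOCS proteins are themselves STAT targets and shut the pathway down by binding receptors or JAKs and by marking them for degradation. In ILC2s, IL-7, IL-2 and TSLP signal mainly through STAT5, IL-4 and IL-13 through STAT6, IL-6-type cytokines through STAT3, and IL-12 through STAT4.

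Library totals ranged from 13407277 to 18253462 counts. Values are in CPM, which put the counts of all libraries on 1 scale after edgeR's TMM normalization. At 0 counts in 1 library, counting error alone allows a level of up to 3 counts, which is 0.163 to 0.239 CPM here. Injured meninges 2 stood apart, its rank correlations over genes with injured meninges 1 and 3 being 0.795 and 0.799, and it had the fewest detected genes, 13465. ILC2 markers were present in all groups: the 10 genes of that list summed to 6847 to 9507 CPM in injured meninges, 6465 to 7413 CPM in uninjured meninges and 6491 to 8333 CPM in lung. Single genes of the list differed between groups at an edgeR adjusted p under 0.05. Thy1, part of the sort gate, was lower after injury, at 68.0 ± 21.6 CPM in injured and 225 ± 56.3 CPM in uninjured meninges (SD, n = 3 each; edgeR adjusted p = 0.022). It lost that call without injured meninges 2 (adjusted p = 0.0642) or 3 (0.0891), without uninjured meninges 1 (0.131) or 3 (0.0675), and with only the 6 libraries compared (0.104). Areg, which encodes amphiregulin, averaged 8.69 ± 5.11 CPM in injured meninges, 19.1 ± 7.19 CPM in uninjured meninges and 203 ± 127 CPM in lung. It was lower than lung in injured (edgeR adjusted p = 0.00098) and uninjured meninges (edgeR adjusted p = 0.0072), also in each of the 16 alternatives. In bulk RNA, fewer cells of a type and less RNA per cell cannot be told apart.

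Promoter windows of 3 feedback genes are shown because STAT factors bind a short palindrome, TTCNNNGAA, and because the 3 genes are feedback inhibitors whose levels differed widely, Cish being abundant and Socs3 scarce. RefSeq windows on GRCm38.p6, each 300 bases from 250 bases before the annotated start to 50 after it, were found for 8 of the 9 genes (all but Socs2), 11 windows in all. The Cish window lies at chr9:107296409-107296708 on the plus strand, Socs1 at chr16:10785487-10785786 and Socs3 at chr11:117969317-117969616, both on the minus strand. Each is printed 5′ to 3′ along its gene, and capitals mark the motif, which reads the same on both strands.
Cish: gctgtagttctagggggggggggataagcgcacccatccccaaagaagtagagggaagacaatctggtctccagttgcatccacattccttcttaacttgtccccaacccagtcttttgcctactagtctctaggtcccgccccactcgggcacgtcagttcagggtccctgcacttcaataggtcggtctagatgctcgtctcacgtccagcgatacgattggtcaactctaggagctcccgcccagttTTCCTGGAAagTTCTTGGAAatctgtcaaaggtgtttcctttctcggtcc
Socs1: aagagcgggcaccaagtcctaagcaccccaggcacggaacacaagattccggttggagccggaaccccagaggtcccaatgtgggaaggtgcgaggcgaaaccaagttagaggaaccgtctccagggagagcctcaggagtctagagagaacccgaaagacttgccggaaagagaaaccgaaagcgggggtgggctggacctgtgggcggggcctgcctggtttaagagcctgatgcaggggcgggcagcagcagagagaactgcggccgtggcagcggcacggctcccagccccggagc
Socs3: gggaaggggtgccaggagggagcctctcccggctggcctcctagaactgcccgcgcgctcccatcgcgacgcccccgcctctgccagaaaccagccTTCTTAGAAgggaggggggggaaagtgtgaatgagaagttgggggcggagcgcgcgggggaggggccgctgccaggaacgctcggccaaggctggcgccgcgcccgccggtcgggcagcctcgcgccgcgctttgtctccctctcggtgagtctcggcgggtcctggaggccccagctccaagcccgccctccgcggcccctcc
Of the 11 windows, 2 held the motif, and it occurs in 8.3% of all 32851 windows of this length. Cish had it at 0 and 11 bases from the start site, and Socs3 had it at -154. The Socs1 window held no match, and neither did the 8 windows of the STAT genes. The longer form preferred by STAT6, TTC and GAA with 4 bases of any kind between them, occurred in none of the 11 windows and in 6.95% of all windows; it too reads the same on both strands. No match says only that these letters are not in the window, and no binding was measured.

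Per length of transcript, Cish and the STAT genes of the IL-12, IL-6 and IL-4 pathways were the most abundant of the 9 in these cells. CPM per kb of the principal transcript averaged 63.2 for Cish over the 9 libraries, 52.2 for Stat4, 37.3 for Stat3, 36.5 for Stat6 and 23.8 for Socs2. Further down came Stat5b at 8.21, Stat5a at 7.92, Socs1 at 4.36 and Socs3 at 1.04 CPM per kb. Over libraries, the range of Cish, 43.7 to 85.4 CPM per kb, overlapped that of Stat4, 28.1 to 74.9. Stat3 and Stat6 overlapped as well, and so did Stat5b and Stat5a. The order depends on the length used. With all annotated exons in place of the principal transcript, Stat4 came first at 40.2, followed by Stat6 at 31.3, Cish at 28.1 and Stat3 at 17.7 CPM per kb, and Socs2 stood at 5.54.

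**Figure D1:**
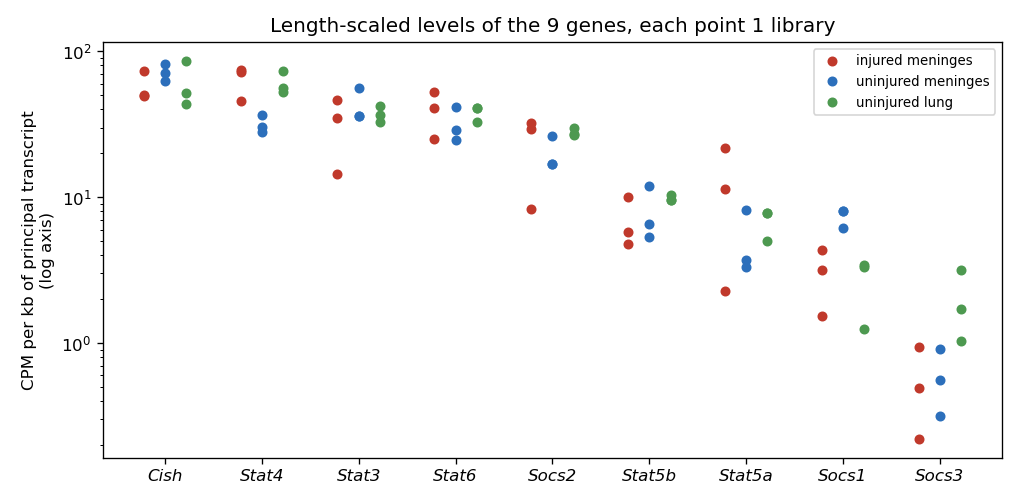
CPM per kb of principal transcript (log axis) for the 9 genes, each point 1 library, with injured meninges, uninjured meninges and uninjured lung from left to right within each gene. Genes run from Cish, with a mean of 63.2 CPM per kb, to Socs3, with 1.04.

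Differences between groups were tested with edgeR over all 15117 genes that passed the filter, and a gene is called when its Benjamini-Hochberg adjusted p is under 0.05. None of the 9 genes was called in any of the 3 comparisons. For injured against uninjured meninges, 0.192% of all genes were called, for uninjured meninges against lung 0.635%, and for injured meninges against lung 1.05%. At an unadjusted p under 0.05 there was 1 gene, Stat4, for injured against uninjured meninges, where 8.94% of all genes reached it. For uninjured meninges against lung it was again 1, Stat4, beside 7.98% of all genes, and for injured meninges against lung it was 0, beside 13.3%. With DESeq2, Stat4 was called in the first and the second of these comparisons and no gene of the 9 in the third. DESeq2 also called more of all genes than edgeR did, 271, 420 and 789 in the 3 comparisons in that order. The first and second comparisons share the 3 uninjured meningeal libraries, so their results for a gene are not independent.

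Stat4, the factor that carries IL-12 signals and drives interferon gamma in other lymphocytes, had its lowest levels in uninjured meninges. It stood at 136, 223 and 216 CPM in injured meninges, 90.5, 83.8 and 109 CPM in uninjured meninges, and 156, 218 and 168 CPM in lung. Every uninjured meningeal library lay below every library of the other groups, while injured meninges and lung overlapped. Injured meninges averaged 192 ± 48.2 CPM and uninjured meninges 94.5 ± 13.1 (SD, n = 3 each). The fitted log2 fold change was 1.02 with a standard error of 0.27 (edgeR adjusted p = 0.23; DESeq2 adjusted p = 0.028), and over 16 alternatives the adjusted p ranged from 0.028 to 0.56. The 95% interval of the fold ran from 1.36 to 3.03, for 1 gene and without adjustment over genes. Without injured meninges 2 the log2 fold change was 0.90 (edgeR adjusted p = 0.45). Uninjured meninges were lower than lung, at 181 ± 33.3 CPM, by a log2 fold change of -0.93 ± 0.27 (edgeR adjusted p = 0.19; DESeq2 adjusted p = 0.038; 0.038 to 0.62 over 16 alternatives). Between injured meninges and lung it was 0.09 ± 0.27 (edgeR adjusted p = 0.94), with a 95% interval of the fold from 0.716 to 1.58. In GENCODE M21 another gene model on the same strand, Gm28177, shares 26.7% of the exonic bases of Stat4, and it had 157 counts over the 9 libraries against 21239 for Stat4. How reads in the shared bases were counted is not stated, so these counts do not bound the effect of the overlap.

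**Figure D2:**
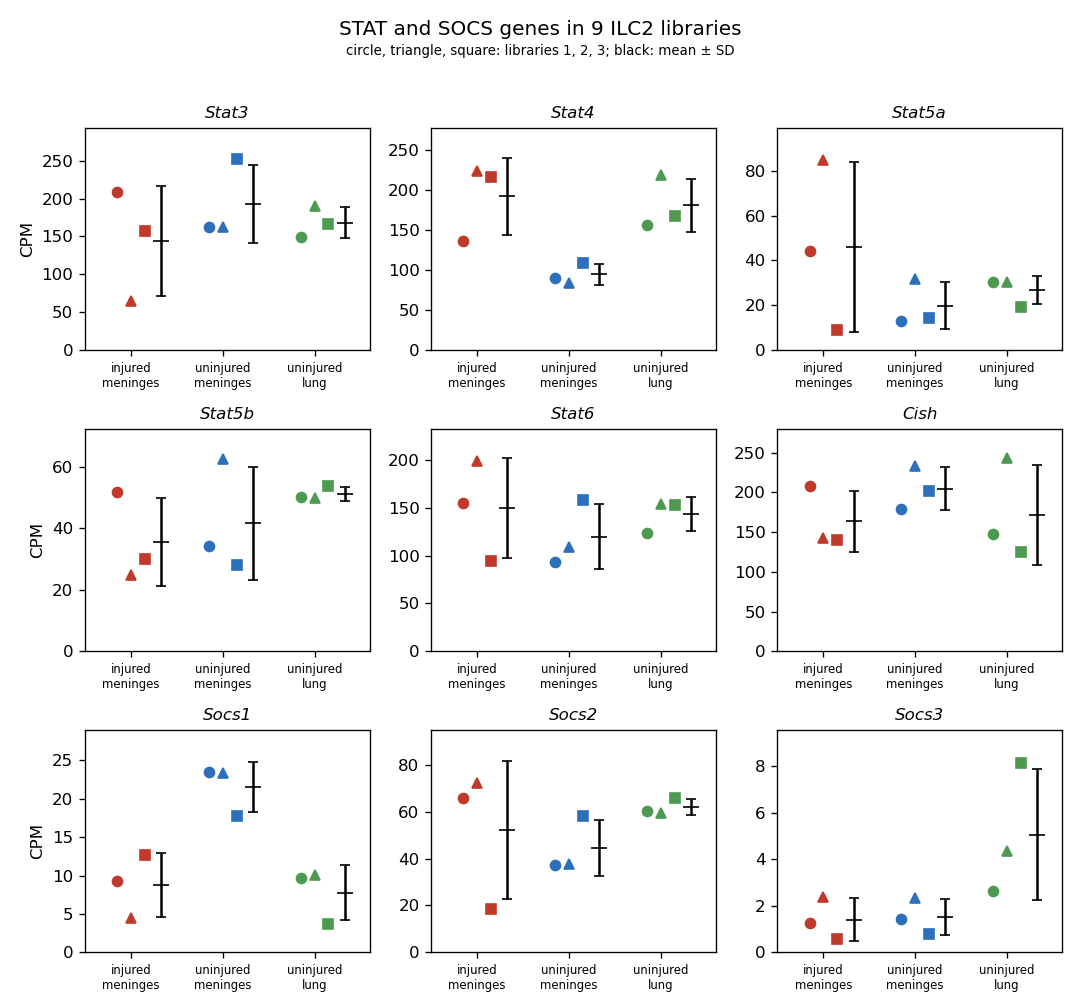
CPM of the 9 genes in each library, with injured meninges, uninjured meninges and uninjured lung from left to right. Symbols are libraries 1, 2 and 3 and black bars the mean ± SD of 3 libraries. Stat4 is lowest in all 3 uninjured meningeal libraries, at 83.8 to 109 CPM, and Socs1 is highest there, at 17.7 to 23.5 CPM.

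Other lymphocytes also express Stat4, so their markers are given beside it. The 7 T cell markers summed to 2.32 to 103 CPM in injured meninges, 9.94 to 49.5 CPM in uninjured meninges and 12.9 to 44.6 CPM in lung. The 6 NK cell and ILC1 markers summed to 0.188 to 13.9 CPM in injured meninges, 0.0645 to 3.56 CPM in uninjured meninges and 1.99 to 13.3 CPM in lung. Gzma and Tbx21 had no count in injured meninges. Injured meninges 2, with the highest Stat4 of all libraries, also had the highest T cell sum. Most of that sum was Cd3g, at 91.9 CPM, while Trac had 0.159 CPM there. Trac was highest in injured meninges 1, at 26.3 CPM, whose Stat4 was the lowest of its group, 136 CPM. Injured meninges 3 had the lowest T cell and NK cell sums of its group, 2.32 and 0.188 CPM, and 216 CPM of Stat4. Uninjured meninges 2, with the lowest Stat4 of all, had the lowest NK cell sum of all, 0.0645 CPM, and the lowest T cell sum of its group, 9.94 CPM. The highest NK cell sum of all was that of injured meninges 1, 13.9 CPM, of which Klrb1c made up 13.7 CPM. The part of these cells in the level of Stat4 was not tested. Il12rb2, the inducible chain of the IL-12 receptor upstream of STAT4, was chosen after its values were seen. It had 0.96, 0.80 and 0 CPM in injured meninges, 1.63, 3.42 and 0 CPM in uninjured meninges and 0, 0.52 and 4.36 CPM in lung, so its levels overlapped in every pair of groups and reached at most a few CPM.

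The ratio of Stat4 to Stat3 counts within a library does not depend on how libraries are scaled. It was chosen after the values were seen. It was 0.653, 3.42 and 1.37 in injured meninges, 0.555, 0.517 and 0.432 in uninjured meninges, and 1.05, 1.15 and 1.01 in lung. All 3 ratios of uninjured meninges were below the lowest of injured meninges and of lung. The ratio of 3.42 belongs to injured meninges 2, the library that stood apart. Since the genes differ in transcript length, the ratio is compared between libraries only. It reuses the Stat4 counts described above, and how often ratios of other gene pairs separate the groups was not computed. The ratio of Stat5a to Stat5b, also computed, overlapped between all groups. It was 0.848, 3.43 and 0.293 in injured meninges, 0.377, 0.508 and 0.518 in uninjured meninges, and 0.604, 0.612 and 0.361 in lung.

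Stat3, the factor of IL-6-type cytokines and IL-10, had overlapping levels in all groups. Its CPM was 209, 65.2 and 157 in injured meninges, 163, 162 and 253 in uninjured meninges, and 149, 190 and 166 in lung. The lowest value was that of injured meninges 2. For injured against uninjured meninges the log2 fold change was -0.42 ± 0.35 (edgeR adjusted p = 0.79), and -0.07 without that library. Between uninjured meninges and lung it was 0.20 ± 0.35 (edgeR adjusted p = 0.99), with a 95% interval of the fold from 0.686 to 1.91.

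Stat6, which carries IL-4 and IL-13 signals, overlapped between groups as well. It had 155, 199 and 94.7 CPM in injured meninges, 93.2, 109 and 158 CPM in uninjured meninges, and 123, 154 and 153 CPM in lung. Injured meninges averaged 1.25 times the level of uninjured meninges in the fit, with a 95% interval from 0.794 to 1.96 (edgeR adjusted p = 0.84). Uninjured meninges against lung gave a fold of 0.836, with an interval from 0.532 to 1.31 (edgeR adjusted p = 0.98). A change of 2-fold in either direction lay outside both intervals.

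Stat5a and Stat5b are close paralogs that act downstream of IL-7, IL-2 and TSLP. Stat5a had 44.0, 84.9 and 8.84 CPM in injured meninges, 12.9, 31.8 and 14.5 CPM in uninjured meninges, and 30.2, 30.5 and 19.4 CPM in lung. The injured libraries held both the highest and the lowest value of the 9, so the log2 fold change against uninjured meninges, 1.22 ± 0.67, had a 95% interval from -0.22 to 2.65 (edgeR adjusted p = 0.64). It was 0.42 without injured meninges 2. Stat5b had 51.9, 24.7 and 30.1 CPM in injured meninges, 34.2, 62.6 and 28.0 CPM in uninjured meninges, and 50.1, 49.9 and 53.7 CPM in lung. Its coefficient of variation was 40.4% in injured meninges, 44.3% in uninjured meninges and 4.26% in lung, whose libraries lay close together. Its log2 fold change was -0.22 ± 0.45 for injured against uninjured meninges (edgeR adjusted p = 0.93) and -0.30 ± 0.45 for uninjured meninges against lung (edgeR adjusted p = 0.99). Counts of the pair carry some uncertainty, because 8.21% of the stretches of 50 bases in Stat5a transcripts also occur in Stat5b and 11% of those in Stat5b occur in Stat5a. The sources used here do not say how reads matching both genes were counted. The exons of Stat5a also share 72 bases with those of Stat3 on the opposite strand.

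Among the inhibitors, Socs1 had the pattern opposite to Stat4. SOCS1 blocks JAK catalytic activity and is best known as a brake on interferon signalling. Socs1 had 9.26, 4.45 and 12.7 CPM in injured meninges, 23.5, 23.4 and 17.7 CPM in uninjured meninges, and 9.65, 10.0 and 3.65 CPM in lung. Uninjured meninges lay above the other groups in every library, and injured meninges and lung overlapped. The means were 8.79 ± 4.12 CPM in injured and 21.5 ± 3.28 CPM in uninjured meninges, a log2 fold change of -1.29 ± 0.77 with a 95% interval from -2.94 to 0.36 (edgeR adjusted p = 0.67). For uninjured meninges against lung, which averaged 7.77 ± 3.57 CPM, it was 1.47 ± 0.78 (edgeR adjusted p = 0.71). Counts behind these values were 56 to 202 in injured meninges, 264 to 431 in uninjured meninges and 57 to 157 in lung. Across the 9 libraries the log2 levels of Socs1 and Stat4 had a Pearson correlation of -0.73, given as a description of libraries that share groups. Other pairs of the 9 genes had values of like size, such as 0.84 for Stat6 and Socs2 and -0.68 for Stat6 and Socs1.

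Cish was high in every library. CIS binds activated receptors, and its gene is a textbook target of STAT5. Cish had 208, 143 and 140.0 CPM in injured meninges, 179, 233 and 202 CPM in uninjured meninges, and 148, 243 and 125 CPM in lung. All groups overlapped. The fold was 0.80 for injured against uninjured meninges, with a 95% interval from 0.527 to 1.22 (edgeR adjusted p = 0.81). It was 1.19 for uninjured meninges against lung, with an interval from 0.784 to 1.81 (edgeR adjusted p = 0.97). Here too a 2-fold change in either direction lay outside the interval.

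Socs2, an inhibitor known above all for limiting growth hormone signalling, was lower in each uninjured meningeal library than in each lung library. It had 65.7, 72.1 and 18.3 CPM in injured meninges, 37.4, 37.6 and 58.2 CPM in uninjured meninges, and 60.3, 59.6 and 65.8 CPM in lung. The margin was small, 58.2 CPM in uninjured meninges 3 against 59.6 CPM in lung 2, and the log2 fold change of uninjured meninges against lung was -0.48 ± 0.46 (edgeR adjusted p = 0.95). Injured meninges 3 had the lowest Socs2 of all libraries, and also the lowest Stat5a. Against uninjured meninges, injured meninges had a log2 fold change of 0.23 ± 0.46 (edgeR adjusted p = 0.93), which was -0.080 without injured meninges 2.

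Socs3, the inhibitor induced by IL-6-type cytokines through STAT3, was scarce. Its counts were 21, 30 and 9 in injured meninges, 26, 36 and 12 in uninjured meninges, and 43, 59 and 127 in lung. In CPM these were 1.25, 2.39 and 0.56 in injured meninges, 1.41, 2.32 and 0.81 in uninjured meninges, and 2.64, 4.35 and 8.13 in lung. Lung lay above both meningeal groups in each library, and the meningeal groups overlapped. The margin was small, 2.64 CPM (43 counts) in lung 1 against 2.39 CPM (30 counts) in injured meninges 2. The log2 fold change was -1.73 ± 1.51 for uninjured meninges against lung (edgeR adjusted p = 0.93) and -1.84 ± 1.52 for injured meninges against lung (edgeR adjusted p = 0.68). These intervals are wide: the fold of uninjured meninges against lung ran from 0.0327 to 2.78. Summed endothelial, lung epithelial and fibroblast markers were also higher in each lung library than in any meningeal library. Monocyte and macrophage sums overlapped between groups, and Lyz2 made up most of the sums of lung 1 and 3 (326 and 425 CPM). The 5 endothelial markers summed to 42.6 to 102 CPM in injured meninges, 42.8 to 138 CPM in uninjured meninges and 178 to 510.4 CPM in lung. The 5 lung epithelial markers summed to 7.96 to 27.6 CPM in injured meninges, 3.76 to 11.05 CPM in uninjured meninges and 638 to 2108 CPM in lung. Scgb1a1 was the largest part of that sum in lung, at 1456, 613 and 661 CPM. Single genes of these lists overlapped between groups, such as Epcam, at 18.3, 8.32 and 1.47 CPM in lung, and Dcn of the fibroblast list. The 6 fibroblast markers summed to 3.89 to 33.7 CPM in injured meninges, 3.29 to 77.3 CPM in uninjured meninges and 84.5 to 249 CPM in lung. The 8 monocyte and macrophage markers summed to 65.9 to 150.3 CPM in injured meninges, 26.8 to 92.7 CPM in uninjured meninges and 34.4 to 489 CPM in lung. Within lung, library 1 had the highest endothelial and epithelial sums and the lowest Socs3, while library 3 had the highest fibroblast and macrophage sums and the highest Socs3. The part of these cells in the level of Socs3 was not tested.

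**Figure D3:**
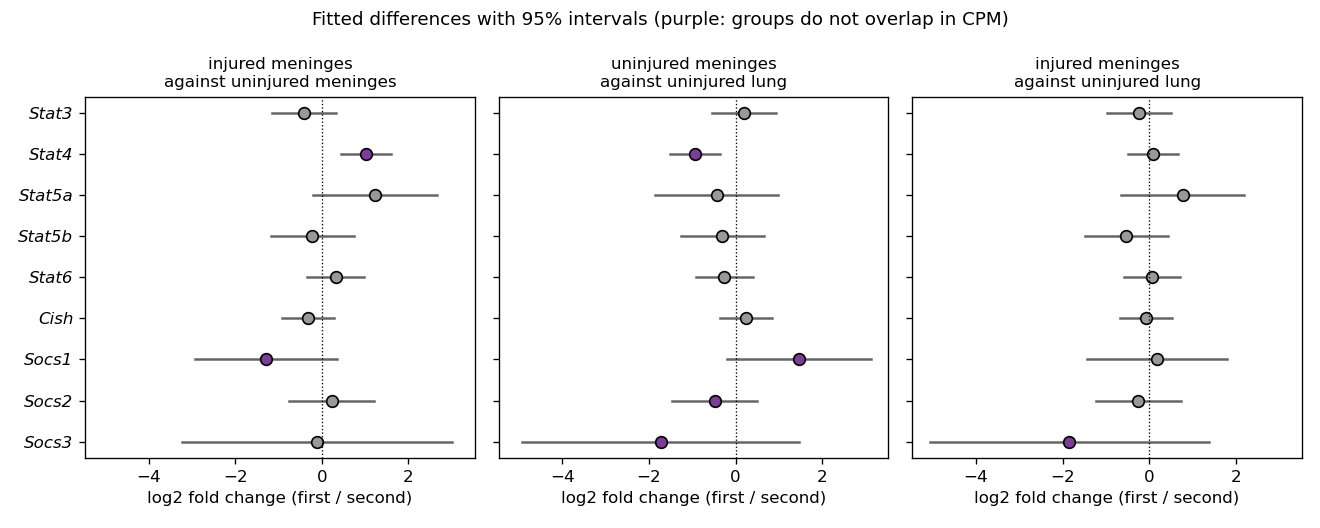
Log2 fold change fitted by edgeR (first group over second) for the 9 genes in 3 comparisons, with lines for 95% intervals. Purple points mark genes whose groups do not overlap in CPM, such as Stat4 at 1.02 and Socs1 at -1.29 for injured against uninjured meninges.

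Counted over all 9 genes, CPM ranges of injured and uninjured meninges were separate for 2 genes, Stat4 and Socs1, and for 12.1% of all genes tested. Between uninjured meninges and lung it was 4 genes, Socs1 higher in meninges and Stat4, Socs2 and Socs3 lower, beside 18.2% of all genes tested. Between injured meninges and lung it was 1 gene, Socs3, beside 17.8%. The median log2 fold change of the 9 genes was -0.11 for injured against uninjured meninges, -0.30 for uninjured meninges against lung and -0.07 for injured meninges against lung, beside medians of -0.0047, 0.0019 and -0.010 over all genes tested. Injured meninges had the widest spread. The median coefficient of variation of the 9 genes was 46.9% in injured meninges, 27.0% in uninjured meninges and 18.4% in lung. Over the 8111 tested genes that averaged 10 CPM or more the medians were 43.3% in injured meninges, 30.4% in uninjured meninges and 29.8% in lung. Injured meninges 2 held the highest value of the 9 libraries for 4 genes (Stat4, Stat5a, Stat6 and Socs2) and the lowest for 2 (Stat3 and Stat5b).

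By likeness over the 9 libraries, the genes closest to Stat4 among those that averaged 10 CPM or more were Wsb1, with a Pearson correlation of 0.97 on log2(CPM + 1), Atp2b4 with 0.97 and Rnf115 with 0.96. Wsb1, which encodes an adaptor of a ubiquitin ligase, had 72.9, 113 and 114 CPM in injured meninges, 65.1, 54.2 and 73.4 CPM in uninjured meninges, and 83.6, 114 and 100.2 CPM in lung. Injured and uninjured meninges overlapped by a narrow margin, 72.9 CPM in injured meninges 1 against 73.4 CPM in uninjured meninges 3. Atp2b4, which encodes a plasma membrane calcium pump, had 65.1, 136 and 96.6 CPM in injured meninges, 24.7, 20.6 and 23.0 CPM in uninjured meninges, and 65.1, 156 and 68.5 CPM in lung. It was called lower in uninjured meninges than in lung, with a log2 fold change of -2.08 ± 0.41 (edgeR adjusted p = 0.029). It was no longer called when uninjured meninges 1 (adjusted p = 0.0703), 2 (0.139) or 3 (0.102) was left out, or lung 2 (0.183). For injured against uninjured meninges Atp2b4 had 2.12 ± 0.41 (edgeR adjusted p = 0.055). For Socs3 the closest were S100a11 with 0.93, Myadm with 0.93 and Fat4 with 0.92. Myadm, which encodes a membrane protein, had 131, 144 and 85.4 CPM in injured meninges, 91.0, 160.0 and 121 CPM in uninjured meninges, and 359, 429 and 780 CPM in lung. It was called lower than lung in uninjured meninges, with a log2 fold change of -2.07 ± 0.32 (edgeR adjusted p = 0.0043), and in injured meninges, with -2.12 ± 0.32 (edgeR adjusted p = 0.0034). Both calls remained in each of the 16 alternatives. Wsb1, Rnf115, S100a11 and Fat4 were not called in any comparison (edgeR adjusted p of 0.40 or more). All these genes were picked by likeness, from 8110 genes for Stat4 and 8111 for Socs3, in the same 9 libraries. An order of groups shared with Stat4 or Socs3 therefore follows from the choice, and their tests give no separate support.

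Elsewhere in the pathway, few genes of the lists were called. Of 16 ligands, 9 passed the filter on low counts and none was called for injured against uninjured meninges or for uninjured meninges against lung. At an unadjusted p under 0.05 there were 1 and 3, beside 8.94% and 7.98% of all genes tested. Lif, an IL-6-type cytokine that signals through STAT3, had 5.91, 1.83 and 17.7 CPM in injured meninges, 15.9, 30.7 and 51.1 CPM in uninjured meninges, and 55.2, 145 and 159 CPM in lung. It was called lower in injured meninges than in lung, with a log2 fold change of -3.82 ± 0.73 (edgeR adjusted p = 0.017), and was no longer called without injured meninges 1 (adjusted p = 0.0567), lung 2 (0.0513) or lung 3 (0.0724). Against uninjured meninges the injured ones had -1.94 ± 0.68 (edgeR adjusted p = 0.45), and these groups overlapped.

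Of 28 receptor chains, 26 passed the filter on low counts. For injured against uninjured meninges, 1 was called higher and none lower, beside 0.192% of all genes called in either direction. Log2 fold changes were above 0 for 17 chains and below 0 for 9, beside 7470 and 7590 of all genes tested. The gene that rose was Ifngr1, which encodes the ligand-binding part of the receptor for interferon gamma. It had 258, 384 and 273 CPM in injured meninges, 88.7, 60.3 and 135 CPM in uninjured meninges, and 181, 210 and 197 CPM in lung. As for Stat4, the uninjured meningeal libraries all lay lowest. The log2 fold change of injured against uninjured meninges was 1.69 ± 0.29 (edgeR adjusted p = 0.024). The call was lost without injured meninges 2 (adjusted p = 0.0691), uninjured meninges 1 (0.119) or uninjured meninges 2 (0.113), and in a fit of only the 6 libraries compared (0.121). Il10ra, the ligand-binding chain of the IL-10 receptor, shared that order, with 39.3, 175 and 80.2 CPM in injured meninges, 19.8, 22.5 and 33.3 CPM in uninjured meninges, and 57.5, 46.0 and 75.3 CPM in lung. It was not called (edgeR adjusted p = 0.19 for injured against uninjured meninges). Il7r, a receptor chain for IL-7 and TSLP, averaged 2086 ± 367 CPM in injured and 1301 ± 224 CPM in uninjured meninges without overlap and was not called either (edgeR adjusted p = 0.22). For uninjured meninges against lung, 0 of 26 receptor chains were called. At an unadjusted p under 0.05, 1 was higher and 3 were lower, beside 7.98% of all genes tested in either direction. A negative log2 fold change was found for 22 of the 26, and for 7541 of all 15117 genes tested. The median over the chains was -0.43, beside 0.0019 over all genes tested. The endothelial, fibroblast and lung epithelial marker sums given with Socs3 were likewise lower in uninjured meninges than in lung. The part of cells of these types in the values of the receptor chains was not tested.

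Of the 6 Janus kinases and other STATs, none was called in any of the 3 comparisons. Stat2, a STAT of type I interferon signalling, had 41.3, 17.7 and 81.3 CPM in injured meninges, 47.3, 51.7 and 161 CPM in uninjured meninges, and 41.5, 47.1 and 29.7 CPM in lung. Its uninjured meningeal libraries lay just above lung, 47.3 CPM in the lowest against 47.1 CPM in the highest lung library, and the log2 fold change of uninjured meninges against lung was 1.13 ± 0.56 (edgeR adjusted p = 0.65). Injured and uninjured meninges overlapped. Jak2, a kinase of several of these receptors, had 498, 386 and 709 CPM in injured meninges, 420, 343 and 332 CPM in uninjured meninges, and 404, 495 and 707 CPM in lung, with a log2 fold change of 0.54 ± 0.25 for injured against uninjured meninges (edgeR adjusted p = 0.56).

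**Figure D4:**
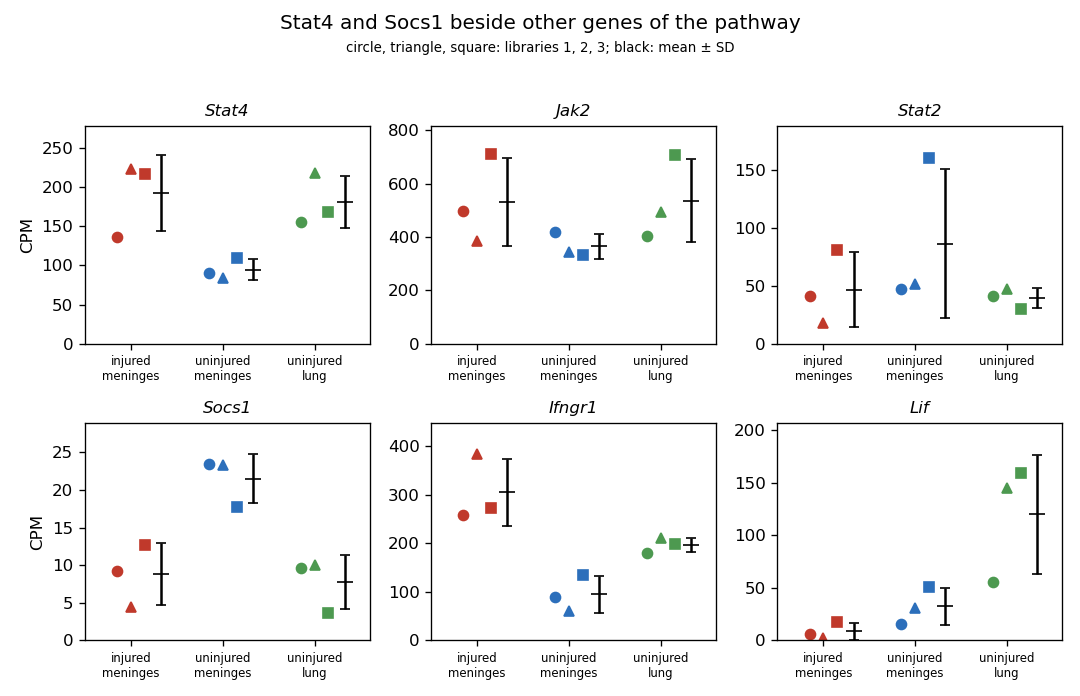
CPM of Stat4 and Socs1 beside Jak2, Stat2, the receptor chain gene Ifngr1 and the ligand gene Lif, with groups, symbols and bars as in the plot of the 9 genes. Uninjured meninges lie lowest for Stat4 and Ifngr1 in all 3 libraries and highest for Socs1.

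Of the 13 other negative regulators, which include the remaining SOCS genes, the PIAS proteins and phosphatases of JAKs, none was called in any of the 3 comparisons. Socs5 averaged 22.1 ± 2.62 CPM in injured and 35.2 ± 4.36 CPM in uninjured meninges without overlap, a log2 fold change of -0.67 ± 0.49 (edgeR adjusted p = 0.74). Ptpn11, the gene of the phosphatase SHP2, averaged 43.7 ± 14.7 CPM in uninjured meninges and 87.6 ± 26.3 CPM in lung (edgeR adjusted p = 0.48). Of 16 known STAT target genes outside the SOCS family, none was called for injured against uninjured meninges or for uninjured meninges against lung. Myc averaged 49.8 ± 28.1 CPM in injured and 82.7 ± 28.2 CPM in uninjured meninges (edgeR adjusted p = 0.67). Junb, which encodes an AP-1 subunit, was called lower in injured meninges than in lung, at 55.8 ± 4.9 against 292 ± 78.2 CPM, a log2 fold change of -2.39 ± 0.42 (edgeR adjusted p = 0.011), and it remained called in each of the 16 alternatives. Over the 16 targets the median of the log2 fold changes was 0.017 between injured and uninjured meninges, with 8 values on either side of 0.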

How the data were processed

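The authors deposited raw counts of reads for each gene, which were not normalized. The submitters' processing notes name FastQC, STAR and HTSeq and the build mm9, and give neither versions, roles nor a strand setting. Without strand, reads of overlapping genes cannot be told apart. Per the labels' protocols, RNA was amplified before library preparation, so reads are not independent molecules. Symbols came from the table for 15969 genes and from a reference list for 7407. Transcript lengths and overlaps came from GENCODE M21, another build than the counts.

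Low counts were filtered with filterByExpr by group, and all 9 libraries entered 1 edgeR 4.0.16 fit (R 4.3.3) with a mean per group and robust quasi-likelihood F tests, adjusted by the Benjamini-Hochberg method over all 15117 genes. The standard error of a log2 fold change is its size over the root of its F statistic. DESeq2 1.42.0 was an alternative. The procedure was also run on counts simulated as independent draws, which cannot show how it performs on libraries of amplified RNA. Libraries of a group differed beyond sampling noise (chi-square per degree of freedom 62.8 or more). The genes and lists were chosen with earlier results of these data known. Beyond the 9 genes, called genes of the pathway lists and up to 3 genes per pathway list and comparison with the smallest p are named, fewer than the rule allows, and the 3 genes whose log2 levels correlate best with the member of smallest p in each comparison. Il12rb2, Thy1, Areg and the count ratio of Stat4 to Stat3 were chosen after their values were seen. The values of 1 listed gene are not reported here.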

Additional observations from a re-analysis of the deposited data

How the results depend on the processing

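Of 429 values of the 9 genes under 16 alternatives, 409 kept their direction and their side of the threshold. Only DESeq2 called a gene of the 9: it called 1, Stat4, for injured against uninjured meninges and 1, Stat4, for uninjured meninges against lung. Direction changed in 18 values, each in a fit with 1 library left out and none called. Over the fits with 1 library left out, the log2 fold change of injured against uninjured meninges ranged from -0.59 to 0.20 for Stat5b, from -0.080 to 0.64 for Socs2 and from -0.73 to 0.33 for Socs3. For uninjured meninges against lung that of Stat3 ranged from -0.048 to 0.30. For injured meninges against lung the ranges were -0.61 to 0.12 for Stat3, -0.035 to 0.28 for Stat4, -0.016 to 1.27 for Stat5a, -0.20 to 0.30 for Stat6, -0.29 to 0.25 for Cish, -0.18 to 0.50 for Socs1 and -0.56 to 0.16 for Socs2. Counts over all genes moved more. For injured against uninjured meninges, 29 genes were called, against 78 with no filter on low counts, 12 with only the 6 libraries compared, 271 with DESeq2 and 18 to 27 with 1 library left out. For uninjured meninges against lung, 96 were called, against 193, 226, 420 and 51 to 196 in the same order. For injured meninges against lung, 159 were called, against 296 with no filter, 789 with DESeq2 and 54 to 230 with 1 library left out. The cause was not tested. None of 9 correlations of same-numbered libraries, taken as deviations from group means, exceeded 0.1 (-0.034 to 0.096). With 3 libraries per group, such correlations cannot settle whether replicate numbers paired the samples. With the replicate block, 43, 136 and 183 genes were called and none of the 9. The alternatives for the called genes outside the 9 were added after the data were seen. Socs3 fell below the filter of 10 CPM. Its counts of 9 to 127 limit what could be detected.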
